A study of Mus musculus with 11 samples.

Results

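The 8 Trpm genes, *Trpm1* to *Trpm8*, encode the melastatin branch of the TRP (transient receptor potential) cation channels. They were taken by symbol, each symbol being mapped to the Ensembl identifier used in the expression tables, and make up 8 of the 38393 genes listed there. *Trpm1* carries the deleted *miR-211* in one of its introns and *Trpm3* carries the paralog *miR-204*. RNA was sequenced from whole eyes of mice 1 to 2 months old of the C57BL/6 strain (C57Bl/6J background in the study's methods) in 11 libraries, 5 from wild-type (WT) and 6 from *miR-211*-/- (KO) animals, in which the sequence of pre-miR-211 had been removed by homologous recombination. The dissected tissue held retina, retinal pigment epithelium (RPE), choroid, sclera and ciliary body, and lens and cornea had been taken off. The comparison asks whether removal of an intronic miRNA was accompanied by a change of its host gene, of the host of its paralog, or of their relatives. All KO animals were males while WT animals were of both sexes, and which WT library came from which sex is not given in the labels, so that genotype and sex cannot be fully told apart.

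TRPM proteins form tetrameric channels in the plasma membrane or in vesicles. TRPM1 is the transduction channel of ON-bipolar cells of the retina: in darkness glutamate released by photoreceptors acts on the receptor mGluR6 and the channel is held closed, and with light it opens and depolarizes the cell. It was first known as melastatin from pigment cells, where its gene is a target of the transcription factor MITF. TRPM3 is a calcium-permeable channel found in RPE, sensory neurons and brain. TRPM2 opens with oxidative stress, TRPM4 and TRPM5 are calcium-activated channels for monovalent cations, TRPM6 and TRPM7 are magnesium-permeable channels fused to a kinase, and TRPM8 is the cold and menthol receptor.

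The mature miRNAs of the hosts are shown to make clear how close the deleted and the remaining miRNA are. Sequences are from RefSeq (GRCm38.p6), are read 5′ to 3′, and carry the seed, bases 2 to 8, in capitals.
miR-211-5p: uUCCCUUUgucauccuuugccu
miR-204-5p: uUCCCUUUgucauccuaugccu
miR-211-3p: gCAAGGACagcaaaggggggc
miR-204-3p: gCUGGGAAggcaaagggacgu
Both 5p miRNAs are 22 bases long, share the seed UCCCUUU and are identical at 21 of 22 positions, the difference from miR-204-5p to miR-211-5p being A17U, counted from the 5′ end. The 3p arms have different seeds. The precursor removed in the KO animals and the one retained on chromosome 19 are given next, with both mature arms in capitals.
Mir211 hairpin: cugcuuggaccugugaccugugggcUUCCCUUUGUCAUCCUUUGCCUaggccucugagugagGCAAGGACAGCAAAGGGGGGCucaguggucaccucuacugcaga
Mir204 hairpin: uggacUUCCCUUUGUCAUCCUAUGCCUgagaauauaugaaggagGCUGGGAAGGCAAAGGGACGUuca

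*Mir211* lies at chr7:64205806-64205911 on the plus strand, in the intron of 3682 bp between exons 6 and 7 of the main transcripts of *Trpm1* (ENSMUSG00000030523, chr7:64153835-64269775, plus strand). *Mir204* lies at chr19:22750605-22750672 on the plus strand, within *Trpm3* (ENSMUSG00000052387, chr19:22139046-22995410, plus strand), in the intron of 33462 bp between exons 6 and 7 of its main transcripts. Both miRNA genes had a count of 0 in all 11 libraries, WT included. For a gene long enough to take up read pairs, a count of 0 allows up to 3 of them, for counting error only. That is 0.0826 to 0.148 CPM (the count scaled to library size) depending on the library. *Mir211* and *Mir204* are 106 and 68 bases long, beside reads of 100 nt, so that their 0 sets no such limit. The libraries were made with a TruSeq RNA kit and not as small-RNA libraries. These values give no measure of the mature miRNAs, and the deletion could not be checked in them.

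The gene totals of the libraries were 20282241 to 36317673 read pairs. Of the 8 Trpm genes, 6 had at least 1 CPM in at least 5 libraries and entered the genotype test with 15767 genes in all. *Trpm5* (13 to 30 read pairs) and *Trpm8* (3 to 10 read pairs) stayed below this limit. Markers of retina and RPE were present in all libraries, the summed list of 8 rod genes at 26920 to 42580 CPM and the RPE visual cycle gene *Rpe65* at 90.2 to 157 CPM. Markers of tissue that had been dissected off were also found, but unevenly, the lens gene *Mip* ranging from 0 to 1252 CPM. The lens gene list summed to 88090 CPM in WT replicate 4, 25920 in KO replicate 3 and 3806 in KO replicate 6, against 110 to 278 in the other 8 libraries. *Krt12*, a keratin of the corneal epithelium, ranged from 4.25 to 3505 CPM. In the study's own table of changed genes, 5 library column names end in wt or ko and 6 in a digit and m. These were read as names by mouse number and by age. They are called here the mouse-number series (WT replicates 1 and 2, KO replicates 1 to 3) and the age series (WT replicates 3 to 5, KO replicates 4 to 6). What the naming stands for is not stated, and the series are not meant as a contrast of ages. Libraries are labelled as separate samples, and p-values measure the spread between them.

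Within the family, *Trpm1* had the most transcript per length, followed by *Trpm3* and *Trpm7*. Levels of different genes were compared by FPKM, which scales read pairs to transcript length and library depth. The FPKM of *Trpm1* ranged from 94.9 to 152 (median 125 over 11 libraries), that of *Trpm3* from 41.1 to 59.1 (median 47.8) and that of *Trpm7* from 18.6 to 26.7 (median 24.2). These ranges did not overlap, and the order *Trpm1*, *Trpm3*, *Trpm7* held in 11 of 11 libraries. The hosts *Trpm1* and *Trpm3* together made up 82.2% to 87.2% of the FPKM of the family. By mean FPKM *Trpm1* stood at the 97.0th percentile of the genes tested, *Trpm3* at the 90.5th and *Trpm7* at the 76.3rd.

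The other 5 genes were lower, with *Trpm7* above *Trpm2* by a median ratio of 8.81 over the libraries. *Trpm2* (FPKM 2.01 to 3.85, median 2.41) and *Trpm4* (1.90 to 4.08, median 2.33) did not differ in order beyond their spread, *Trpm2* being the higher of the pair in 5 of 11 libraries. *Trpm6* had an FPKM of 0.18 to 2.33 (median 0.51) and *Trpm5* of 0.14 to 0.65 (median 0.27), with *Trpm6* above *Trpm5* in 9 of 11 libraries and their ranges overlapping. *Trpm8*, with an FPKM of 0.03 to 0.12, was last in every library. The 3 to 10 read pairs behind *Trpm8* do not show by themselves in which tissue they arose. Reads from the gene *Tssc4*, which overlaps *Trpm5* on the opposite strand and had 404 to 759 read pairs, cannot be told apart from those of *Trpm5* where the genes overlap, since RSEM in its standard setting takes no account of strand.

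**Figure D1:**
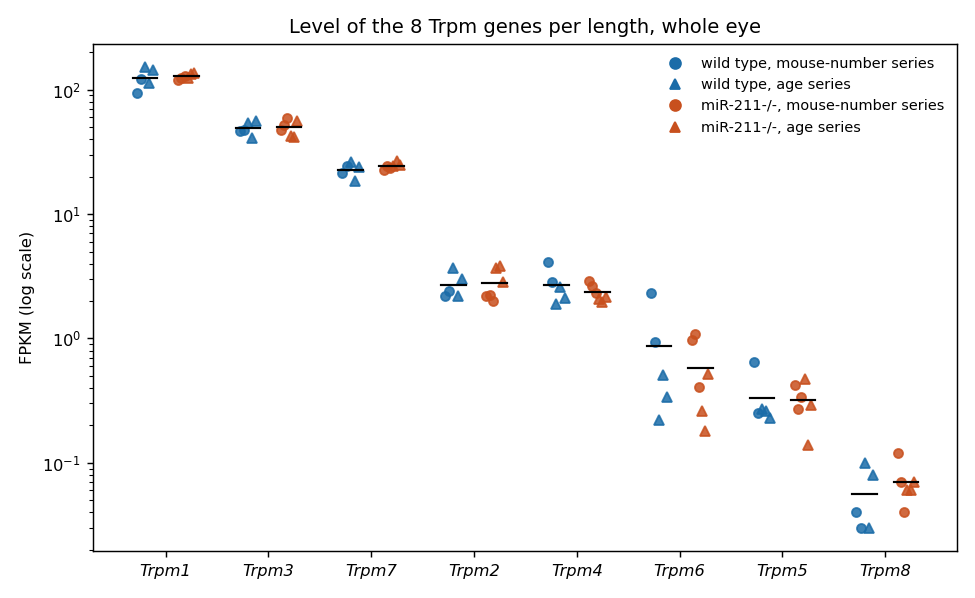
FPKM of the 8 Trpm genes in each library on a log scale, ordered by median, with wild-type libraries in blue and miR-211-/- libraries in orange (circles for the mouse-number series, triangles for the age series) and a bar at each group mean. *Trpm1*, *Trpm3* and *Trpm7* stand in 3 separate bands, and both genotypes overlap for each of the 8 genes.

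For the host of the deleted miRNA, KO and WT libraries differed by less than their spread. *Trpm1* was at 330, 409, 494, 424 and 488 CPM in WT replicates 1 to 5, and the KO libraries lay between 412 and 464 CPM with a median of 428.5. WT replicate 1 was the lowest of all libraries and WT replicates 3 and 5 the highest, so that all KO values fell inside the WT range. The means were 429 ± 67.1 CPM (SD, n = 5) in WT and 432 ± 19.1 CPM (SD, n = 6) in KO. The log2 fold change of KO against WT was 0.01 (SE 0.15, 95% interval -0.28 to 0.30, adjusted p = 0.9999 by edgeR's likelihood-ratio test), an interval that leaves room for a level between 0.823 and 1.23 times that of WT. In whole-eye RNA, fewer cells of a type and less RNA per cell cannot be told apart.

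*Trpm3*, the host of *miR-204*, likewise differed by less than its spread. The WT libraries had 125, 146.5, 176, 152 and 181 CPM and the KO libraries 127 to 179 CPM (median 160.1), with the ranges almost the same. The means were 156 ± 22.9 CPM (SD, n = 5) and 156 ± 20.9 CPM (SD, n = 6), which gave a log2 fold change of 0.00 (SE 0.14, 95% interval -0.27 to 0.28, adjusted p = 0.9999 by edgeR). On the linear scale this interval runs from 0.828 to 1.21. *Trpm7*, the widely expressed channel kinase, had 89.1, 119, 130, 112 and 125 CPM in WT and 111 to 130 CPM (median 115) in KO, and WT replicate 1 lay below the other 10 libraries. Its log2 fold change was 0.02 (SE 0.11, 95% interval -0.20 to 0.25, adjusted p = 0.9999 by edgeR). WT replicate 1, the lowest library for *Trpm1*, *Trpm3* and *Trpm7*, also had the highest sum of the 7 microglial genes (221 CPM, the other 10 libraries having 91.9 to 117) and the lowest of the 8 rod genes (26920 CPM, the others having 31550 to 42580), and the part of these in its values was not tested.

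The oxidant-gated *Trpm2* had 10.2, 10.1, 14.6, 11.9 and 13.2 CPM in WT libraries and 9.97 to 16.2 CPM (median 11.7) in KO, a log2 fold change of 0.04 (SE 0.18, adjusted p = 0.9999 by edgeR). *Trpm4* was at 17.1, 12.1, 7.625, 12.5 and 8.64 CPM in WT and at 7.92 to 12.4 CPM (median 9.33) in KO, and its log2 fold change was -0.25 (SE 0.22, 95% interval -0.69 to 0.19, adjusted p = 0.9999 by edgeR) and -0.07 without WT replicate 1. *Trpm6* had 15.0, 6.17, 1.34, 3.80 and 2.15 CPM in WT and 1.14 to 7.02 CPM (median 2.96) in KO. The genotypes overlapped for *Trpm2*, *Trpm4* and *Trpm6*, and WT replicate 1 lay above all KO libraries for *Trpm4* and *Trpm6*. The log2 fold change of *Trpm6* was -0.63 (SE 0.62, 95% interval -1.85 to 0.60, adjusted p = 0.9999 by edgeR) and turned to 0.13 without WT replicate 1.

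No member of the family was called between genotypes: 0 of the 6 members tested had an adjusted p under 0.1, where 0.00634% of all genes tested (1 of 15767) did. At an unadjusted p under 0.05 the count was also 0 of 6, against 2.09% of all genes (0.323% higher and 1.77% lower in KO), and the quasi-likelihood test of edgeR and DESeq2 called 0 of 6 as well. The 2 genes under the limit had few reads in both groups. *Trpm5* had a log2 fold change of -0.10 (SE 0.28) and *Trpm8*, the cold receptor, of 0.25 (SE 0.43) when every gene with a read pair was fitted. When the 3 libraries with the most lens RNA were left out, the 6 values lay between -0.59 (*Trpm6*) and 0.09 (*Trpm2*) and again 0 of 6 were called.

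Within the library series the differences of the hosts had opposite signs. In the mouse-number series (2 WT, 3 KO) log2 CPM was higher in KO by 0.20 for *Trpm1* and 0.28 for *Trpm3*, with no overlap of the genotypes for either. Without WT replicate 1 these values became 0.05 and 0.17, and without WT replicate 2 they became 0.36 and 0.40. In the age series (3 WT, 3 KO) the differences were -0.09 and -0.21, with overlap, and with each library left out they ran from -0.16 to -0.05 and from -0.35 to -0.11. *Trpm7* showed 0.20 and -0.08, *Trpm2* 0.01 and 0.11, *Trpm4* -0.38 and -0.16, and *Trpm6* -0.96 and -0.27, with overlap in both series for all 4. *Trpm8*, with 3 to 10 read pairs, showed 0.82 without overlap in the mouse-number series and -0.21 with overlap in the age series. With 2 against 3 libraries a permutation test could not pass 0.05, and the share of all genes without overlap was not computed. Without WT replicate 1 the mouse-number values of *Trpm4*, *Trpm6* and *Trpm7* became -0.13, -0.32 and -0.01, and without WT replicate 4 the age values of *Trpm4* and *Trpm6* became 0.05 and 0.11. In the fit over all genes the interaction of genotype and series was -0.28 on the log2 scale for *Trpm1* and -0.48 for *Trpm3*, and 0 of 6 members passed this test (adjusted p = 0.9996 for each by edgeR's likelihood-ratio test), with 3 of 15767 genes called.

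The other branches of the TRP superfamily were examined in the same fit. Of 20 genes for TRPC, TRPV, TRPA, mucolipin and polycystin channels, 19 were listed, 12 were tested and 0 passed the test in either direction, with 0 at an unadjusted p under 0.05. Their median log2 fold change was -0.04, with 8 lower and 4 higher in KO, beside a median of 0.00 and 48.9% lower over all genes tested. The mucolipin *Mcoln1*, a lysosomal calcium channel, had the largest mean FPKM of the list (46.2, between those of *Trpm3* and *Trpm7*) and a log2 fold change of -0.03 (SE 0.11). *Trpc1*, a subunit of receptor-operated channels, followed with a mean FPKM of 21.6 and a log2 fold change of 0.05 (SE 0.18), and *Pkd2*, the polycystin of primary cilia, with 14.8 and -0.15 (SE 0.10). Mean FPKM of at least 1 was also reached by *Trpc4*, *Trpv2*, *Trpv4*, *Mcoln3* and *Pkd2l2*, with log2 fold changes from -0.40 (*Mcoln3*, SE 0.28) to 0.13 (*Trpc4*, SE 0.15).

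**Figure D2:**
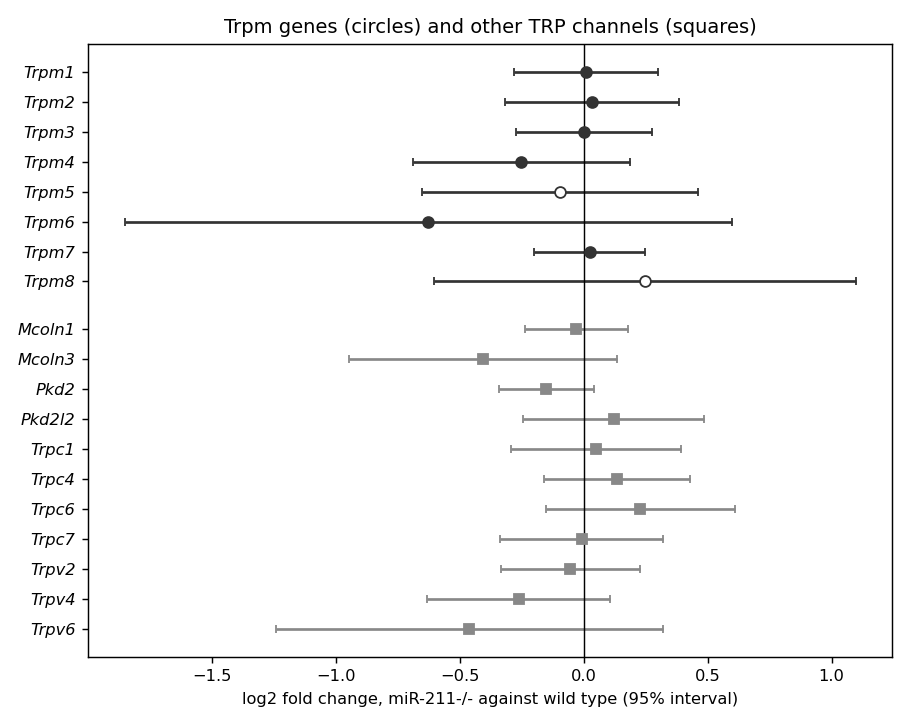
Log2 fold change of miR-211-/- against wild type with its 95% interval, for the 8 Trpm genes (circles, open where the gene was below the limit for testing) and 11 of the other TRP channel genes (squares). Every interval spans 0, the widest among the Trpm genes that were tested being that of *Trpm6*, from -1.85 to 0.60.

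Genes that work with the channels were examined next. Of 16 magnesium transport genes beside *Trpm6* and *Trpm7*, all were tested and 0 passed the test, with 13 higher and 3 lower in KO and a median log2 fold change of 0.03. The 3 with the largest mean FPKM were *Tusc3* (59.2), a subunit of the oligosaccharyltransferase that is also linked to magnesium uptake, with a log2 fold change of 0.09 (SE 0.09), *Nipal3* (27.4) with 0.00 (SE 0.12) and the transporter *Slc41a1* (24.65) with -0.18 (SE 0.16). Of 15 genes of ON-bipolar cells, which hold TRPM1 at the end of the mGluR6 cascade, 0 passed the test, with 8 higher and 7 lower in KO and a median log2 fold change of 0.01. *Grm6*, which encodes mGluR6, was at 144 ± 15.0 CPM in WT (SD, n = 5) and 140 ± 17.0 CPM in KO (SD, n = 6), with a log2 fold change of -0.04 (SE 0.12). The scaffold genes *Gpr179*, *Nyx* and *Lrit3* had log2 fold changes of 0.00 (SE 0.19), -0.08 (SE 0.17) and 0.06 (SE 0.17), and the G protein gene *Gnao1* and its regulator *Rgs11* of 0.01 (SE 0.14) and -0.04 (SE 0.14).

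To set the hosts against the cells in which they are known, 3 ratios of FPKM were taken in each library. The ratio of *Trpm3* to *Trpm1* was 0.492, 0.390, 0.358, 0.366 and 0.388 in WT replicates 1 to 5 and 0.309 to 0.459 in KO. On FPKM, WT replicate 1 stood above all other libraries. On log2 CPM in place of FPKM the WT log2 ratios were -1.49 to -1.40, inside the KO range of -1.80 to -1.31. The difference of KO and WT on the log2 scale was -0.03 (two-sided exact permutation test over 462 splits, p = 0.79, adjusted p = 0.879 over the 3 ratios). *Trpm1* relative to the mean of 15 ON-bipolar genes differed by -0.02 on the log2 scale (exact permutation test, p = 0.879) and *Trpm3* relative to the mean of 10 RPE genes by 0.02 (exact permutation test, p = 0.866, adjusted p = 0.879 for both). The 10 RPE genes include *Best1*, which was below the limit for testing (FPKM 0.17 to 0.47) and has the same weight as the others.

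The second ratio went in opposite directions in the library series. In the mouse-number series the log2 ratio of *Trpm1* to ON-bipolar genes was 1.22 and 1.62 in WT and 1.64 to 1.67 in KO, so that every KO library was above every WT library, with a mean difference of 0.24. In the age series it was 1.56 to 1.72 in WT and 1.30 to 1.52 in KO, every KO library being below every WT library, with a mean difference of -0.24. The difference between the series was not tested for this ratio. Without WT replicate 1 the first value became 0.04 and without WT replicate 2 it became 0.44, and on log2 CPM in place of FPKM the values were 0.23 and -0.19, with overlap in the age series. *Trpm3* relative to RPE genes differed by 0.16 (no overlap) and -0.14 (overlap) in the same order.

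**Figure D3:**
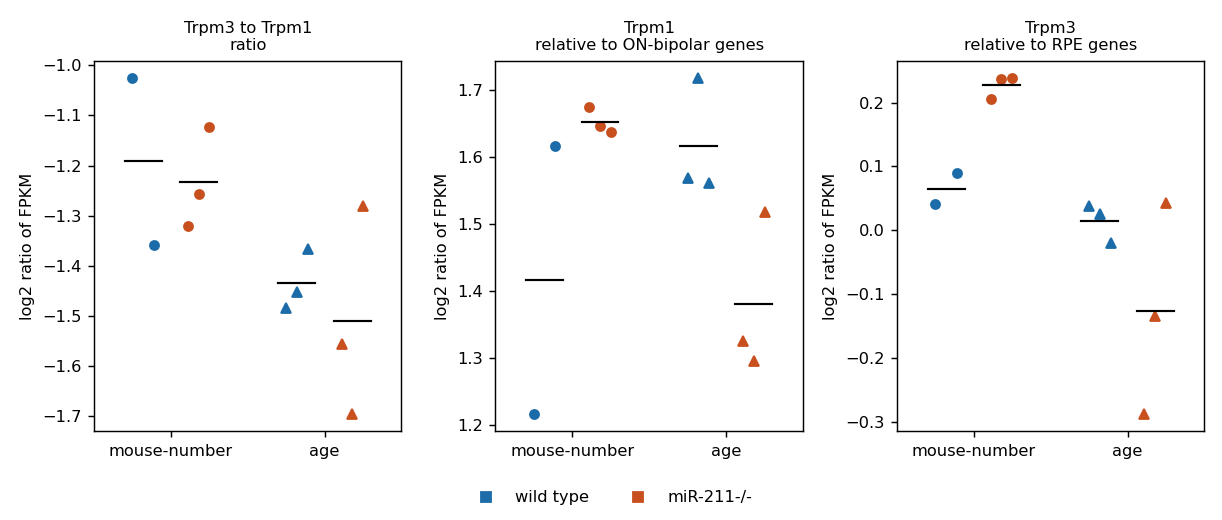
Log2 ratios of FPKM in each library, by library series on the x axis, with wild type in blue and miR-211-/- in orange and a bar at each mean. In the middle panel the miR-211-/- libraries lie above wild type in the mouse-number series (mean difference 0.24) and below it in the age series (mean difference -0.24).

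Since expected counts and FPKM were both given, the effective transcript length that connects them could be computed for each gene and library, a measure of which isoforms the reads were assigned to. This measure was chosen after the data were seen. Of the family, 5 genes had at least 1 FPKM in every library. Reads had been assigned by the authors with Gencode M4, and the annotated transcripts given here need not be that set. For *Trpm1*, of which 23 transcripts of 123 to 5711 bases are annotated, it was 3478, 3311, 3394, 3251 and 3434 bases in WT and 3349 to 3506 bases in KO, and the genotypes overlapped. The log2 difference was 0.02 (SE 0.02, adjusted p = 0.881 by limma over 13617 genes). For *Trpm3*, with 24 annotated transcripts of 726 to 12305 bases, it was 2685, 3042, 3380, 3201 and 3295 bases in WT and 2936 to 3387 bases in KO (log2 difference 0.04, SE 0.06, adjusted p = 0.914 by limma). WT replicate 1 had the shortest assigned mixture of *Trpm3* and also of *Trpm7* (4193 bases, against 4418 to 5371 in the other libraries). *Trpm4* moved by 0.262% of its median between libraries, from 4185 to 4196 bases.

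The implied length of *Trpm2*, *Trpm3* and *Trpm7* thus varied more between libraries than that of *Trpm1* and *Trpm4*. The coefficient of variation was 6.99%, 6.62% and 7.57% for the former and 2.21% and 0.0815% for the latter. Each of the former was above the 94th percentile of the 13617 genes with at least 1 FPKM in every library, whose median was 1.03%. Read depth and the number of annotated isoforms were not taken into account, and *Trpm2* had only 199 to 414 read pairs. Between genotypes 0 of the 5 were called, as were 0% of the 13617 genes by limma (482 at an unadjusted p under 0.05).

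The library series were compared next, as a check of a split that the genotypes do not explain. In a fit with genotype as a covariate, *Trpm2*, *Trpm4* and *Trpm6* were called between the series, that is 3 of the 6 members tested, against 36.3% of all genes tested (5729 of 15767, with 14.6% of all genes higher and 21.7% lower in the age series). *Trpm2* was higher in the age series by 0.45 on the log2 scale (SE 0.11, adjusted p = 0.000734 by edgeR's likelihood-ratio test), with 11.9 to 16.2 CPM in its 6 libraries against 9.97 to 10.55 CPM in the 5 of the mouse-number series. The series did not overlap for *Trpm2*, and the share of all genes without such overlap was not computed. *Trpm6* fell by 1.73 on the log2 scale in the age series (SE 0.41, adjusted p = 0.000493), from 2.63 to 15.0 CPM down to 1.14 to 3.80 CPM, and *Trpm4* fell by 0.49 (SE 0.16, adjusted p = 0.0121), from 9.81 to 17.1 CPM down to 7.625 to 12.5 CPM. In both of these KO replicate 3 was the lowest of the mouse-number series and WT replicate 4 the highest of the age series.

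The hosts and *Trpm7* did not pass this test. The log2 difference between the series was 0.18 for *Trpm1* (SE 0.14, adjusted p = 0.341), 0.06 for *Trpm3* (SE 0.14, adjusted p = 0.804) and 0.08 for *Trpm7* (SE 0.11, adjusted p = 0.610). Some marker lists of other cell types moved with the series. All 8 skeletal muscle genes tested, all 7 adipocyte genes and 5 of 7 genes of cornea and conjunctiva were called lower in the age series. Of 15 ON-bipolar genes, 7 were called higher (median log2 difference of the list 0.20). Other lists had fewer calls. Called higher were 2 of 9 RPE genes and 1 of 8 each for rods, cones, Müller glia and pigment cells. Called lower was 1 of 7 each for ciliary body and microglia, and lens and blood had 0 calls. The summed level of the muscle list was 1965 to 8606 CPM in the mouse-number series and 887.5 to 4852 in the age series, that of the adipocyte list 13.1 to 552 and 12.4 to 158, that of the cornea and conjunctiva list 3689 to 8957 and 1211 to 7479, and that of the ON-bipolar list 2404 to 2570 and 2422 to 3098. None of the genes on these lists was at 0 in all libraries, and their part in the differences of *Trpm2*, *Trpm4* and *Trpm6* was not tested.

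**Figure D4:**
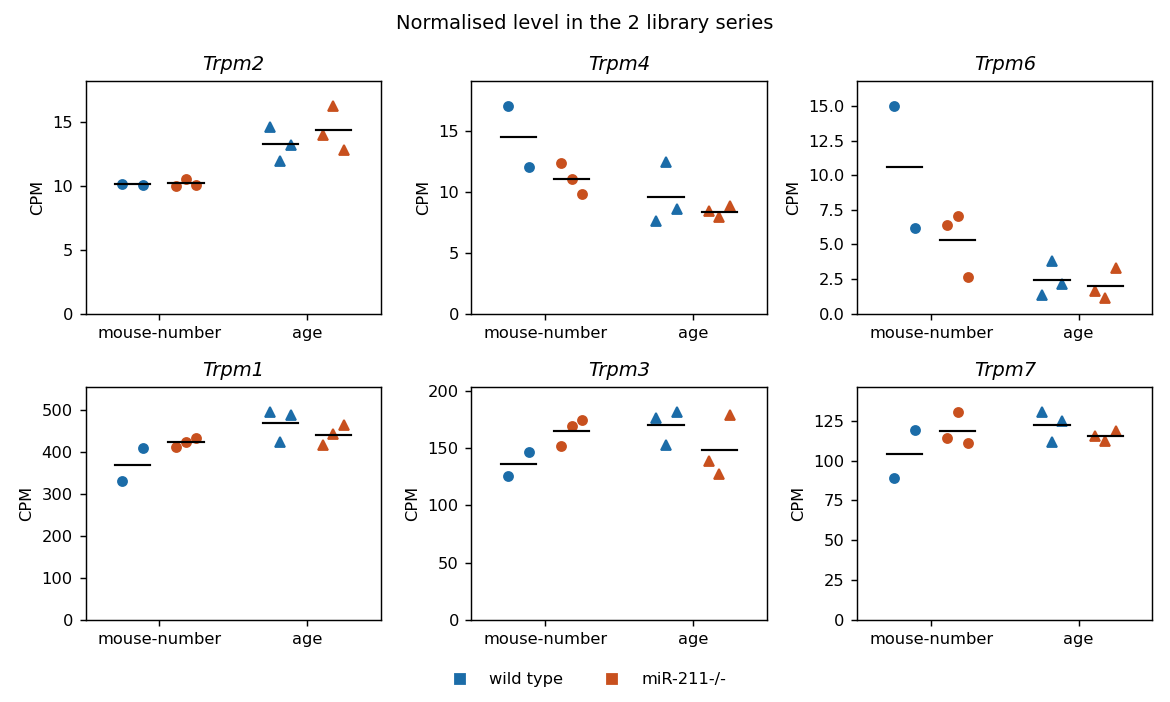
Normalised level in CPM of 6 Trpm genes in the mouse-number and the age series, with wild type in blue, miR-211-/- in orange and a bar at each mean (y axes start at 0). *Trpm2* was higher in all 6 libraries of the age series, from 11.9 CPM, than in the mouse-number series, up to 10.55 CPM, and *Trpm6* reached 15.0 CPM in WT replicate 1 only.

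The genes whose pattern over the 11 libraries was most like that of each host were sought by Pearson's r of log2 CPM, as a description over libraries that share depth and dissection. For *Trpm1* these were *Ccdc14*, the rod channel subunit *Cngb1*, *Edil3*, the synaptic vesicle gene *Sv2b* and *Sbf2*, with r from 0.94 to 0.97 (Spearman's rho 0.76 to 0.91). Without WT replicates 1 and 3, the libraries farthest from the median, r was 0.82 to 0.96, and after subtraction of the mean of each genotype and series 0.86 to 0.97. For *Trpm3* they were *Sec23b*, a coat protein of secretory vesicles, the histone gene *Hist4h4*, *F5*, which encodes coagulation factor V, *Aph1c* and the malic enzyme gene *Me2*, with r from 0.89 to 0.93 (rho 0.87 to 0.95) and 0.80 to 0.87 without WT replicate 1 and KO replicate 5. Of the other genes, 3 of 15766 genes had r over 0.9 with *Trpm3*, against 98 with *Trpm1*.

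The other 4 members followed further patterns, and the genes named for them were chosen after their values had been seen. *Trpm6* ran with the epithelial keratins *Krt15*, *Krt14* and *Krt7* (r = 0.995, 0.99 and 0.99, rho 1, 0.99 and 1). *Krt14*, a keratin of basal epithelial cells, ranged from 18.9 to 370 CPM over the libraries. With the whole cornea and conjunctiva list, which holds *Krt14*, *Trpm6* had r = 0.69 (0.55 within genotype and series), and with the skeletal muscle list 0.91 (0.78). *Trpm4* had r = 0.99 with *Slc16a11* and 0.91 with the mean of the skeletal muscle list. *Trpm4* and *Trpm6* moved together (r = 0.93, rho 0.90, and 0.84 within genotype and series). *Trpm2* had r = 0.99 with *Nrxn2*, a presynaptic adhesion gene, and 0.93 with the mean of the ON-bipolar list, a list with which *Trpm1* had 0.55 (0.46 within genotype and series). *Trpm7* had r = 0.98 with *Pum2*, an RNA-binding repressor of translation. Such values were shared by many genes. Of 15766 other genes, 588 had r over 0.9 with *Trpm2*, 811 with *Trpm4*, 542 with *Trpm6* and 164 with *Trpm7*.

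Against the marker lists, *Trpm1* had its highest r with the rod list (0.88, and 0.96 within genotype and series), followed by the pigment cell list (0.77 and 0.76). For *Trpm3* the order was pigment cells (0.74 and 0.61), RPE (0.67 and 0.83) and rods (0.49 and 0.70). *Trpm4* went against the rod list with r = -0.94 and *Trpm6* with r = -0.84. Between the hosts r was 0.73 (rho 0.75, and 0.72 within genotype and series). These values are given without a test, as 1 library can set them and all points share the composition of the dissected eye.

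**Figure D5:**
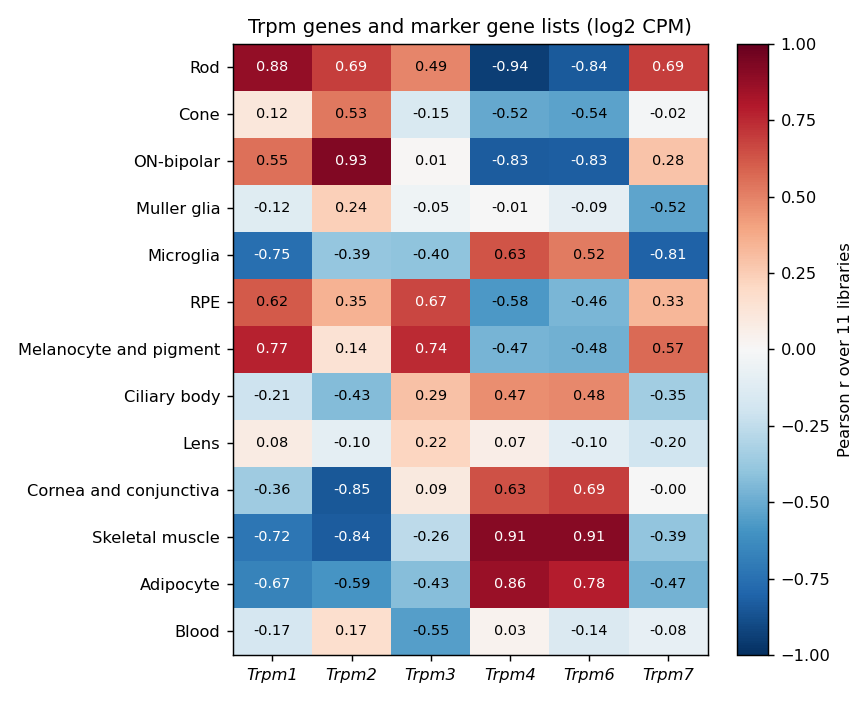
Pearson's r over 11 libraries between the log2 CPM of each tested Trpm gene and the mean log2 CPM of 13 marker gene lists (red positive, blue negative). *Trpm4* and *Trpm6* share a column pattern, negative with rods (-0.94 and -0.84) and positive with skeletal muscle (0.91 and 0.91), while *Trpm1* is highest with rods (0.88) and *Trpm2* with ON-bipolar genes (0.93).

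The start regions of *Trpm1* are shown for the E-box letters that MITF is known to bind. RefSeq windows from 250 bases before to 50 after a start were present for 7 of the 8 genes (GRCm38.p6), with 2 windows each for *Trpm1* and *Trpm3*. The letters CACGTG and CATGTG, searched on both strands, are in capitals and do not overlap each other.
Trpm1 upstream start, chr7:64153585-64153884 (+): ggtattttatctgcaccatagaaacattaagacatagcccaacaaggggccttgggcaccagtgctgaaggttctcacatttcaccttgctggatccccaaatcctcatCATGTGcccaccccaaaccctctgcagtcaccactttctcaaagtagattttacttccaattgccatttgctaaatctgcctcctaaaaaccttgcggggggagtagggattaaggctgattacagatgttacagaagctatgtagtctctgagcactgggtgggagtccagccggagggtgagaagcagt
Trpm1 downstream start, chr7:64185209-64185508 (+): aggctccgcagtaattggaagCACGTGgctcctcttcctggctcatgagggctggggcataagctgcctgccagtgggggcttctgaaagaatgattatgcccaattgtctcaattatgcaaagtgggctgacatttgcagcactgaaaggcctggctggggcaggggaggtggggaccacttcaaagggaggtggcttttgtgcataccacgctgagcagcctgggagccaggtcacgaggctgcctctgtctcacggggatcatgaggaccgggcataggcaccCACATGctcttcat
The upstream window had CATGTG 141 bases before the start. The downstream window had CACGTG 229 bases before the start and CATGTG, on the minus strand, 37 bases after it. Of all 32851 windows, 7.15% held CACGTG and 14.2% CATGTG. Neither was found in the *Trpm3* windows, *Trpm7* had CACGTG 25 bases before and 17 after its start, and *Trpm2* and *Trpm6* had CATGTG 80 and 196 bases before theirs. These matches are descriptions of letters and no binding was measured.

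The reverse complement of the shared seed of miR-211-5p and miR-204-5p, AAAGGGA, was searched in the annotated 3′ untranslated regions of protein-coding transcripts (Gencode M21), which were at most 901 bases long for *Trpm1* and 7102 for *Trpm3*. It was present in 1 of the 8 Trpm genes, against 17.5% of 14502 tested genes with such a region. The match was in *Trpm2*, at chr10:77909244-77909250 on the minus strand, and is shown in capitals with its flanks.
Trpm2 match: ctggttcccagAAAGGGAggtggtctgat
*Trpm2* differed between genotypes by 0.04 on the log2 scale (SE 0.18), as given above.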

How the data were processed

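RNA-seq of 11 whole-eye libraries was analysed from the tables of single libraries. The authors aligned 100-nt read pairs and quantified Gencode M4 genes with RSEM 1.2.19, and deposited for each gene the expected count (estimated read pairs, not scaled) and FPKM (scaled by the authors' RSEM run to effective length and mapped fragments). RSEM was run with its standard settings, under which strand is not used. The study's table of changed genes was read only to match libraries to its column names, and its results were not used.

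Expected counts were rounded. Between 20282241 and 36317673 pairs per library were assigned to genes, and at the lowest total 1 CPM is 20.3 pairs. Genes that reached 1 CPM in 5 or more libraries were fitted with edgeR 4.0.16 in R 4.3.3 (TMM, estimateDisp, glmFit, glmLRT, library sizes before filtering), with Benjamini-Hochberg adjustment over all genes and a threshold of 0.1. CPM are on TMM-scaled library sizes, log2 CPM with a prior count of 2. Ratios used log2(FPKM + 0.1) and two-sided exact permutation tests. Effective length was computed as the expected count over FPKM and library total, centred per library, and fitted with limma 3.58.1. The fits were tested on simulated data. Intervals are 1.96 SE.

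Symbols, positions and introns came from Gencode M21 (GRCm38), with 95.4% of identifiers matched to a symbol. Named are the Trpm genes, *Mir211*, *Mir204*, the 5 genes most like each host, other TRP channels of mean FPKM of at least 1 or unadjusted p under 0.05, the 3 highest and any such magnesium genes, 6 ON-bipolar genes and defining markers. Single genes that meet this rule but are not named are not reported here. The members and all gene lists were chosen with earlier results of these data known. Alternatives were the quasi-likelihood test, DESeq2 1.42.0, upper-quartile or no factors, other filters, a replicate block, the library series as covariate or alone, and each library left out. The fit by library series, the interaction, the effective lengths, the values within series on log2 CPM or with each library left out and the fit without lens-rich libraries were added after seeing the data.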

Additional observations from a re-analysis of the deposited data

Results flagged for a closer look

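*Trpm1* relative to ON-bipolar genes differed between KO and WT by 0.24 on the log2 scale in the mouse-number series, with every KO library above every WT library, and by -0.24 in the age series, with every KO library below. Without WT replicate 1 the first value became 0.04. On log2 CPM in place of FPKM the second became -0.19 and the genotypes overlapped in the age series. The difference between the series was not tested, and with 2 against 3 libraries in one series and 3 against 3 in the other a permutation test could not pass 0.05 within either.

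Of 32 groups of 5 or 6 libraries examined for a sample far from the others, 2 held one, and chance gives about 1 in 20. The log2 ratio of *Trpm3* to *Trpm1* on FPKM was -1.025 in WT replicate 1, against -1.48 to -1.36 in the other 4 WT libraries. On log2 CPM in place of FPKM this library did not stand apart, all WT ratios lying between -1.49 and -1.40. *Trpm8* was at 0.501 CPM (10 read pairs) in KO replicate 1, against 0.172 to 0.274 CPM in the other 5 KO libraries.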

How the results depend on the processing

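Under all alternatives run, 0 of the Trpm members, 0 of the other TRP channels, 0 of the magnesium genes and 0 of the ON-bipolar genes were called between genotypes. Between the library series 3 members were called in each alternative, where 20.8% to 45.9% of all genes tested were called. *Trpm4* was near the threshold without WT replicate 1 (adjusted p = 0.0735 by edgeR's likelihood-ratio test). The number of all genes called, 1, became 0 with the quasi-likelihood test and within the mouse-number series, 2 with DESeq2 or with at least 1 count in any library, 10 with the replicate block, 10 with the library series as covariate, 37 within the age series, and 1 to 11 when each library was left out. The replicate numbers did not pair the libraries (deviations of same-numbered pairs correlated between -0.332 and 0.633), and the block, which leaves out KO replicate 6, called 0 members.

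Values near 0 changed sign. Within the age series the log2 fold changes became -0.085 (*Trpm1*), -0.19 (*Trpm3*) and -0.079 (*Trpm7*), without the 3 lens-rich libraries -0.017 (*Trpm1*) and -0.096 (*Trpm3*), and with the replicate block -0.036 (*Trpm3*). With each library left out they ran from -0.071 to 0.065 (*Trpm1*), -0.061 to 0.12 (*Trpm2*), -0.068 to 0.062 (*Trpm3*), -0.37 to -0.066 (*Trpm4*, the latter without WT replicate 1), -0.92 to 0.13 (*Trpm6*) and -0.055 to 0.073 (*Trpm7*). On log2 CPM *Trpm1* relative to ON-bipolar genes became 0.0024, and it ran from -0.10 to 0.026 with each library left out. With the library series as strata it became 0.00046, the mean of 0.24 in the mouse-number series and -0.24 in the age series, which cancel. *Trpm3* relative to RPE genes became -0.0041 with a pseudocount of 1 and ran from -0.022 to 0.083, and *Trpm3* to *Trpm1* from -0.084 to 0.043. The differences of *Trpm3* and *Trpm7* between the series ran from -0.036 to 0.13 and -0.013 to 0.13.

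Of the 5 genes most like *Trpm1*, 2 were shared after subtraction of genotype and series means and 2 to 4 with each library left out. Of those most like *Trpm3*, 1 was shared without normalization factors, 0 after the subtraction and 0 to 5 with each library left out. The cause was not tested. *Trpm5* and *Trpm8* rest on 3 to 30 read pairs a library.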
